A study of Nasonia vitripennis with 51 samples.

Results

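Heads of adult Nasonia vitripennis females, a parasitoid wasp, were compared after 48 h of feeding on 5-aza-2'-deoxycytidine (5-aza-dC) and after feeding on sucrose alone. The comparison uses 17 of the 51 samples of a whole-genome bisulphite sequencing series, chosen by their labelled tissue and feeding regime. All wasps belonged to AsymC, a wild-type laboratory strain cured of Wolbachia, and each sample was a pool of 10 heads. The sucrose regime was 20% sucrose for 24 h and gave 9 samples, with 3 at each harvest time of 0, 24 and 48 h after exposure. The 5-aza-dC regime was 20% sucrose with 10 µM 5-aza-dC for 48 h and gave 8 samples, with 2 at 0 h and 3 at each of 24 and 48 h. The study asked whether a DNA methyltransferase inhibitor changes methylation in this insect. Sucrose alone was never fed for 48 h, so the drug and the length of feeding cannot be told apart. Harvest was timed after exposure, so at equal harvest times more time had passed since feeding began in the 5-aza-dC regime. That time cannot be told apart from the drug either. A whole head holds brain, eyes, muscle and fat body, and a shift among them cannot be told apart from a change within cells.

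DNA methyltransferases add a methyl group to cytosines in CpG dinucleotides, and a maintenance enzyme of this family copies the mark onto the new strand after replication. Once built into replicating DNA, 5-aza-dC traps these enzymes, which in mammalian cells lowers methylation as cells divide. In Nasonia, methylation lies mostly in exons of a minority of genes that are expressed in many tissues, and the rest of the genome carries very little.

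Bisulphite sequencing reads an unmethylated cytosine as thymine, so the level of a CpG is the share of its reads that stayed cytosine. A CpG was a member when it had reads in all 17 head samples, which held for 1789099 of the 4150376 CpGs listed. Of these, 71.33% had a mean level under 0.02 and 27.22% a mean of 0.02 to 0.1. A mean of 0.1 to 0.2 was found at 19520 CpGs (1.091%), of 0.2 to 0.5 at 2119 and of 0.5 to 0.8 at 954. High methylation, a mean of 0.8 or above, was found at 3470 CpGs (0.194%). Reads per value ranged from 3 to 131. Mean coverage was 23.9 ± 3.87 reads per CpG (SD, n = 9) in sucrose heads and 26.5 ± 5.57 (SD, n = 8) in 48 h 5-aza-dC heads. The difference of 2.04 reads within harvest times did not pass a two-sided exact permutation test (p = 0.354). Within a regime all heads listed the same CpGs, 4108057 for sucrose and 1831418 for 48 h 5-aza-dC, so the regime cannot be told apart from a batch of libraries or processing that followed it.

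Highly methylated CpGs were slightly more methylated after 48 h of 5-aza-dC, not less. Over the 3470 CpGs at 0.8 or above, the mean level of sucrose heads ranged from 91.2% to 91.9% with a median of 91.9% (mean 91.7% ± 0.224, SD, n = 9). The 48 h 5-aza-dC heads ranged from 91.9% to 93.1% with a median of 92.5% (mean 92.5% ± 0.431, SD, n = 8). Of the 8 heads of this regime, 7 lay above every sucrose head, and the other one was harvested at 48 h. The difference, averaged over harvest times, was 0.778 percentage points (two-sided exact permutation test within harvest times, p = 0.00075, adjusted p = 0.0019 over the 5 level classes). It was 0.844 points at 0 h, 0.816 at 24 h and 0.674 at 48 h. The same class was higher on each of the 5 chromosomes and over the unplaced scaffolds, by 0.552 to 0.914 points. Of these 6 differences, 5 passed the exact permutation test at an adjusted p under 0.05, and the difference on chromosome 5, over 200 CpGs, did not (0.552 points, adjusted p = 0.148).

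The largest relative difference lay at CpGs with almost no methylation. Over the 1276092 CpGs under 0.02, sucrose heads ranged from 0.322% to 0.867% with a median of 0.476% (mean 0.548% ± 0.217, SD, n = 9). The 48 h 5-aza-dC heads ranged from 0.785% to 2.94% with a median of 1.56% (mean 1.53% ± 0.668, SD, n = 8), and 7 of the 8 lay above every sucrose head. The difference was 1.07 points (exact permutation p = 0.00025, the smallest that the 4000 arrangements can give, adjusted p = 0.00125). It was 1.92 points at 0 h, 0.370 at 24 h and 0.926 at 48 h, and between 1.05 and 1.09 points on every chromosome and over the unplaced scaffolds. At this level the reads counted as methylated include cytosines that bisulphite failed to convert, and true and false ones cannot be told apart in these files. The part of this difference in the results at higher levels was tested only by correcting each sample for it. With that correction the difference at CpGs of 0.8 or above was 0.701 points (exact permutation p = 0.001).

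Between these ends the regimes differed less clearly. CpGs at 0.1 to 0.2 had a mean of 12.1% ± 1.22 (SD, n = 9) in sucrose heads and 13.8% ± 2.39 (SD, n = 8) in 48 h 5-aza-dC heads. The difference of 1.80 points had an exact permutation p of 0.048 and an adjusted p of 0.080, and after correction for each sample's level at CpGs under 0.02 it was 0.867 points (exact permutation p = 0.381). In 10 of the 17 fits that left out a sample its exact permutation p was above 0.05, up to 0.175 without replicate 3 of the 48 h harvest of sucrose heads. At 0.2 to 0.5 the means were 26.8% ± 1.57 (SD, n = 9) and 27.7% ± 2.56 (SD, n = 8), a difference of 0.996 points (exact permutation p = 0.351). At 0.5 to 0.8 they were 66.9% ± 0.704 (SD, n = 9) and 67.6% ± 1.22 (SD, n = 8), a difference of 0.673 points (exact permutation p = 0.157). On chromosome 1 alone this class was higher by 2.77 points over 183 CpGs (exact permutation, adjusted p = 0.0102 over 30 classes and chromosomes), while on the other chromosomes and the unplaced scaffolds the difference ran from -0.240 to 1.03 points. Most of the 14 CpGs of a called cluster of chromosome 1, at positions 12602472 to 12602739, belong to this class. That cluster was higher by 13.6 points, and the chromosome was not tested without it. None of the 5 level classes had a lower mean after 48 h of 5-aza-dC.

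**Figure D1:**
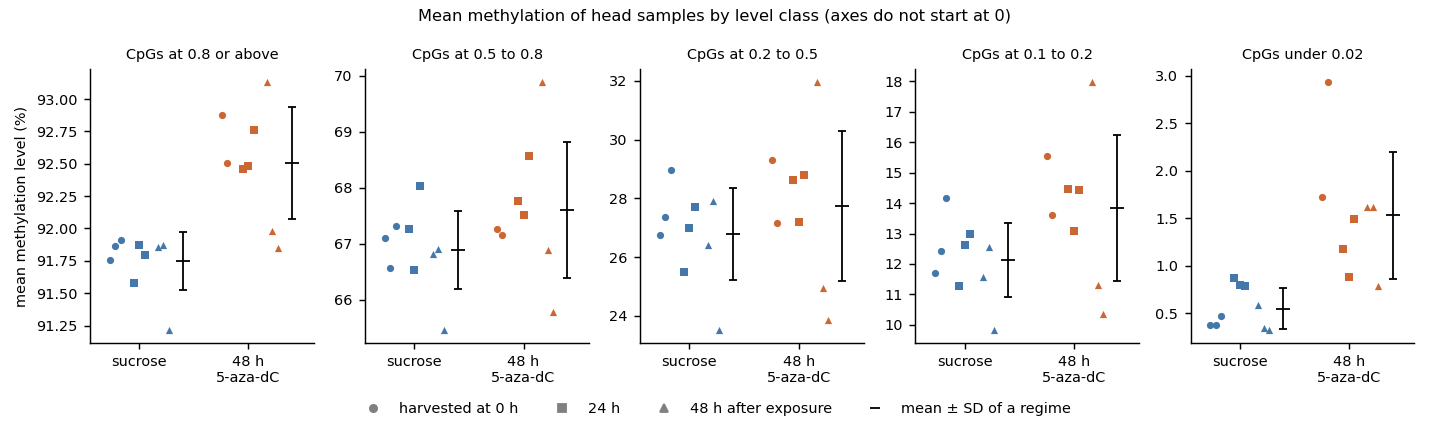
Mean methylation level in percent of each head sample for CpGs in 5 level classes, by regime, with the harvest time as symbol and the mean ± SD beside the points. At 0.8 or above and under 0.02, 7 of 8 heads fed 5-aza-dC for 48 h lie above all sucrose heads, while in the classes between them the points overlap.

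**Figure D2:**
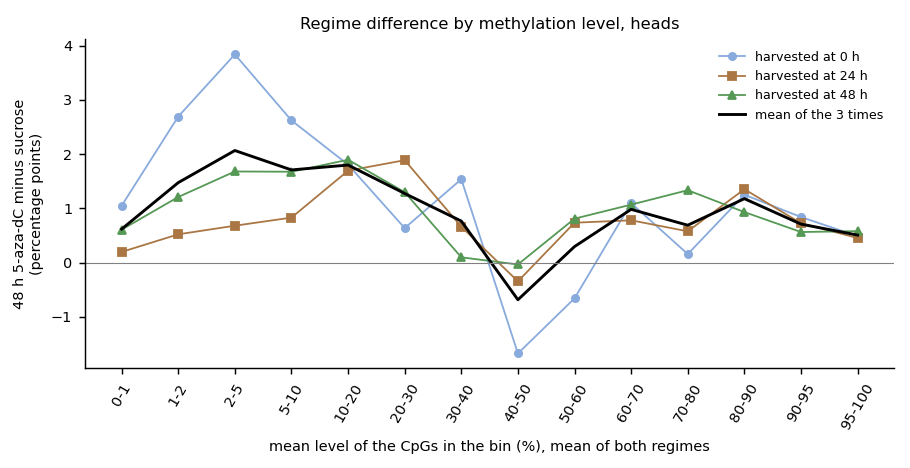
Difference between regime means in percentage points for CpGs binned by mean level, at each harvest time and as the mean of the 3 times. The mean difference is 2.07 points at 2 to 5%, falls to -0.683 at 40 to 50% and lies between 0.298 and 1.18 in the bins above 50%.

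Divided more finely, the difference peaked at a mean level of 0.02 to 0.05, where it was 2.07 points over 409449 CpGs. It was lowest at 0.4 to 0.5, with -0.683 points over 221 CpGs. The spread between harvest times was widest at low levels, where heads harvested at 0 h stood apart. In the bins above 0.8 the 3 harvest times lay within narrow bounds of each other, and the mean difference was 1.18 points at 0.8 to 0.9, 0.712 at 0.9 to 0.95 and 0.509 at 0.95 and above.

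At single CpGs, far larger differences in both directions were found, at few positions. The 26063 CpGs with a mean of at least 0.1 were tested with a quasi-binomial logistic model of methylated and total reads, with harvest time as a block and the Benjamini-Hochberg adjustment. Of these, 128 (0.491%) passed an adjusted p of 0.05. Methylation was higher after 48 h of 5-aza-dC at 82 CpGs (0.315%) and lower at 46 (0.176%). At these 128 positions the regimes differed by 25.34 points in the median and by 6.67 to 53.5 points in all. Over all tested CpGs the median difference was 1.54 points and 62.44% were higher. The sign was the same at the 3 harvest times for 119 of the 128.

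How many CpGs pass depends strongly on how the spread between samples is estimated. The test shrinks each CpG's dispersion, its spread relative to binomial sampling, toward a common value, and called CpGs had a median dispersion of 2.86 that was moderated to 1.79. With dispersions moderated within the 4 level classes, a setting added after the data were seen, 63 CpGs passed (0.242%), 46 higher and 17 lower, and 57 of them were among the 128. With limma on arcsine-square-root proportions 6 CpGs passed, all 6 among the 128, 4 higher and 2 lower. With no moderation of the dispersion none passed, whereas 2174 (8.34%) had an unadjusted p under 0.05 in the moderated test. The groups failed to overlap at 7 of the 26063 tested CpGs (0.0269%), and 4 of these were called.

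CpGs of intermediate level made up most of the calls. At 0.2 to 0.5, 32 CpGs were called higher and 21 lower (2.5% of those tested), and at 0.5 to 0.8 the numbers were 21 and 15 (3.77%). Highly methylated CpGs had 5 higher and 2 lower calls (0.202%), and CpGs at 0.1 to 0.2 had 24 and 8 (0.164%). With dispersions moderated within classes the calls numbered 6 at 0.8 or above, 6 at 0.5 to 0.8, 17 at 0.2 to 0.5 and 34 at 0.1 to 0.2, so CpGs of 0.2 to 0.8 were no longer the larger part. Sucrose heads spread more widely at called CpGs than at tested ones. At means of 0.2 to 0.8 the median SD among sucrose heads was 18 points at called CpGs and 14 at all tested ones, and among 48 h 5-aza-dC heads 13.8 and 13.5. Called CpGs lay on all 5 chromosomes, from 8 on chromosome 4 (0.382% of those tested there) to 26 on chromosome 1 (0.603%), and their share was highest on chromosome 5 (15 calls, 1.23%). Of these 15, however, 5 lay within 61 bases and 4 within 163 bases, so the share rests on few separate places. Another 38 lay on unplaced scaffolds (0.381%).

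**Figure D3:**
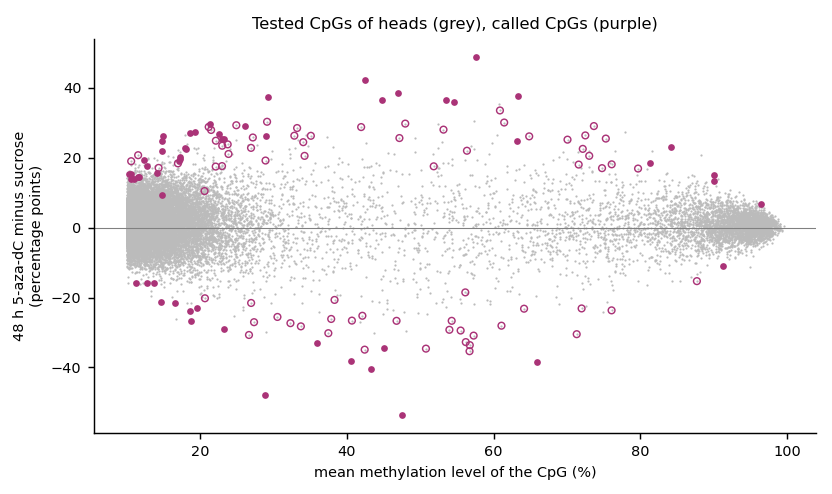
Difference between regimes in percentage points against the mean level in percent for the 26063 tested CpGs of heads (grey) and the 128 called ones (purple). Filled purple points were also called with dispersions moderated within level classes, and open ones were not. Called CpGs lie between 6.67 and 53.5 points from 0 on either side, most of them at intermediate levels.

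At 4 of the 128 called CpGs the groups did not overlap. Their positions follow the authors' table, whose genome build is not given in the sources used here, so no gene was assigned to any position. At position 41990 of the unplaced scaffold ChrUn_0265, sucrose heads ranged from 0% to 24.0% with a median of 11.8%, and 48 h 5-aza-dC heads from 25.6% to 76.5% with a median of 45.1%. The difference was 37.5 points (quasi-binomial test, adjusted p = 0.000741, and 0.0134 with dispersions moderated within classes). At position 577426 of scaffold GL341018 the order was opposite, with 18.2% to 85.7% (median 56.5%) in sucrose heads and 0% to 15.4% (median 2.27%) after 48 h of 5-aza-dC. Methylation there was lower by 47.9 points (quasi-binomial test, adjusted p = 0.000404), on a median of only 10 and 14 reads per value. At position 211617 of scaffold GL341044, sucrose heads ranged from 40.0% to 76.2% and 48 h 5-aza-dC heads from 0% to 37.1%, a difference of -38.2 points (adjusted p = 0.00316). The fourth, position 33296485 of chromosome 1, was nearly fully methylated in both regimes. It ranged from 87.8% to 97.9% in sucrose heads and from 98.0% to 100% in 48 h 5-aza-dC heads, a difference of 6.67 points (adjusted p = 0.0367).

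The 8 higher and 8 lower CpGs with the largest differences, among those of the same sign at every harvest time and at least 10 reads on average, are described next. The widest rise was at position 28060267 of chromosome 2, from 33.2% ± 27.0 (SD, n = 9) in sucrose heads to 82.1% ± 10.1 (SD, n = 8). Sucrose heads there ranged from 9.09% to 83.3%, with the highest values at 48 h, and 5-aza-dC heads from 66.7% to 96.3%, so the groups overlapped. The difference was 57.2 points at 0 h, 65.7 at 24 h and 23.4 at 48 h (quasi-binomial test over the 3 times, adjusted p = 4.2e-07). Position 9397768 of chromosome 1 rose from 27.1% ± 23.5 (SD, n = 9) to 66.9% ± 11.9 (SD, n = 8), again with 1 sucrose head harvested at 48 h as high as the 5-aza-dC heads (77.8%). Position 8413807 of chromosome 5 rose from 26.6% ± 12.8 (SD, n = 9) to 62.8% ± 15.4 (SD, n = 8), and 7 of 8 heads lay above all sucrose heads. The other 5 higher CpGs lay in a pair of short stretches, on ChrUn_0265 and on chromosome 2, described with the stretches of called CpGs.

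Among the lower CpGs, position 577423 of GL341018, 3 bases before the one above, fell from 74.1% ± 25.0 (SD, n = 9) to 21.0% ± 15.4 (SD, n = 8). The median there was only 9 reads per value in sucrose heads and 14 in 48 h 5-aza-dC heads. Position 670578 of chromosome 2 fell from 63.9% ± 24.1 (SD, n = 9) to 22.6% ± 8.79 (SD, n = 8). All 8 heads fed 5-aza-dC lay at or under 31.2% there, and 4 of them under the lowest sucrose head at 25.0%. Position 5833603 of chromosome 1 ranged from 42.9% to 100% in sucrose heads and from 10.0% to 100% after 48 h of 5-aza-dC, and its difference was -78.5 points at 0 h but -17.4 and -19.1 at 24 and 48 h. The last 3, at position 26492 of GL341031, position 24923614 of chromosome 2 and position 2072617 of GL340882, fell by 35.4, 34.9 and 34.6 points. These 3 did not pass with dispersions moderated within classes (adjusted p = 0.0643, 0.0716 and 0.0767), while the other 13 of the 16 did. At the threshold itself, position 27238693 of chromosome 1 and position 2627184 of GL341019 were just inside with adjusted p = 0.0496, and position 1365479 of GL340968 (0.0504) and position 23473052 of chromosome 3 (0.0512) just outside.

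**Figure D4:**
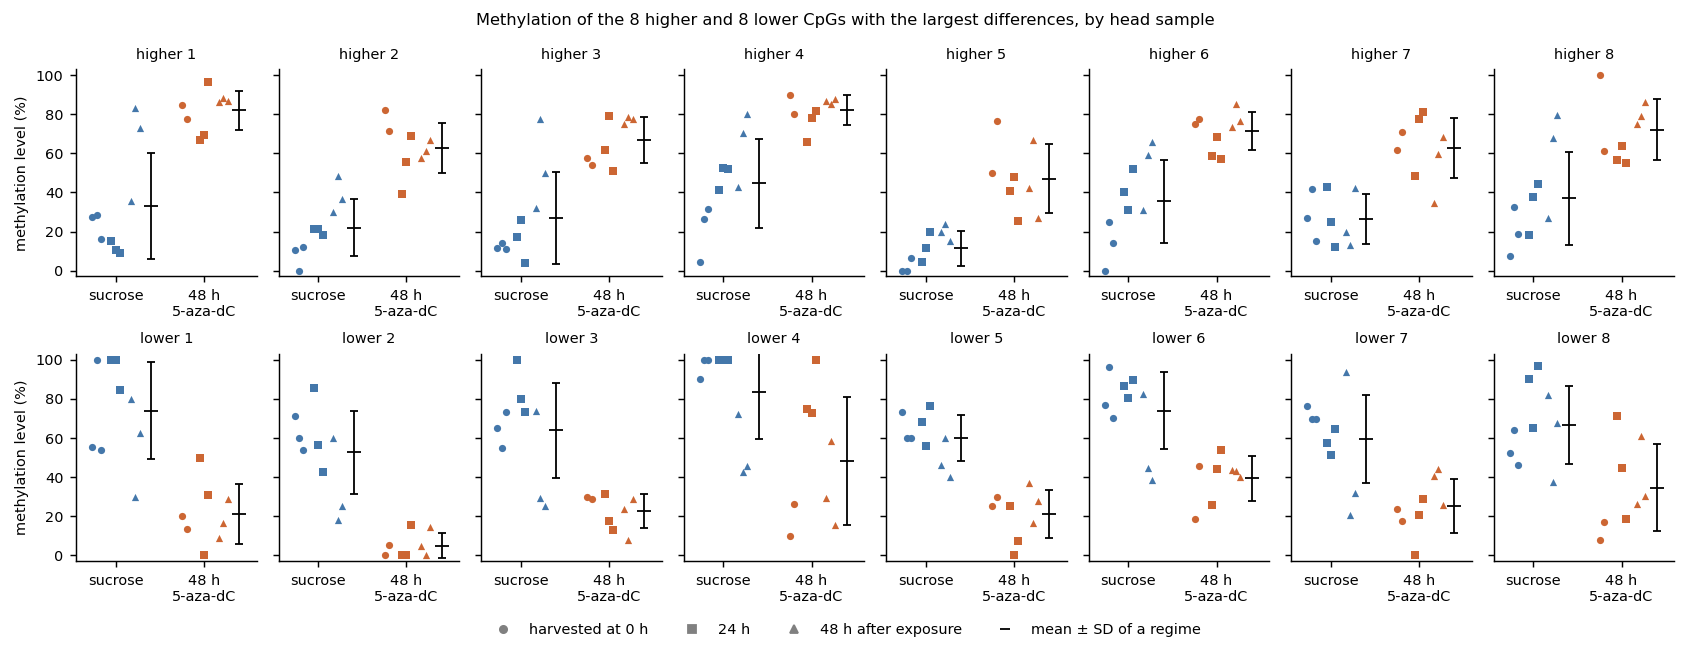
Methylation level in percent in each head sample at the 8 higher and the 8 lower called CpGs with the largest differences, in decreasing order of size, with the harvest time as symbol and mean ± SD per regime. In 15 of the 16 panels the mean of sucrose heads harvested at 48 h lies nearer to the 48 h 5-aza-dC mean than that of earlier sucrose heads. The CpGs were chosen on these same heads, several share a stretch, and other CpGs were not counted.

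Neighbouring CpGs moved together. Of the 128 called CpGs, 51 lay within 1000 bases of another, in 18 stretches with a median length of 20 bases and a longest of 218. In 10 stretches all called CpGs were higher, in 8 all were lower, and none was mixed. CpGs this close are read by the same fragments and are not independent. Levels given for a stretch sum the reads of its called CpGs only, which were chosen for their difference. Other CpGs between them are left out. Several stretches kept no call with dispersions moderated within classes, among them positions 12602472 to 12602689 of chromosome 1 (5 calls) and 2072617 to 2072653 of GL340882 (4 calls). At 48 h the sign was opposite at positions 20847430 to 20847439 of chromosome 3 (-1.82 points) and 173943 to 173945 of GL341020 (6.53 points). Of the called CpGs, 75 higher and 41 lower ones had another CpG within 50 bases. The mean difference of those neighbours, other called CpGs included, was above 0 for 97.3% of the higher and 14.6% of the lower calls, against 83.4% of the 23535 tested CpGs with a neighbour. Called CpGs also lay nearer to well methylated ones, with 45.1% of the higher and 43.5% of the lower calls within 200 bases of another CpG at 0.5 or above, against 17.2% of all tested. At means of 0.2 to 0.8 these shares were 52.8%, 50.0% and 37.7%.

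The stretch with most calls was positions 41963 to 42021 of ChrUn_0265, 59 bases with 6 higher calls, 5 of them kept with dispersions moderated within classes. Summed over the 6 called CpGs, sucrose heads held 4.63%, 2.90% and 7.46% at 0 h, 8.15%, 15.1% and 16.0% at 24 h, and 13.0%, 23.1% and 20.7% at 48 h. The 48 h 5-aza-dC heads held 50.7% and 54.7% at 0 h, 32.8%, 48.3% and 31.0% at 24 h, and 35.0%, 58.5% and 35.1% at 48 h. At these CpGs, chosen for their difference, every head of the latter regime lay above every sucrose head. Among sucrose heads those harvested at 0 h were lowest. On chromosome 5, positions 4776738 to 4776798 held 5 higher calls, 2 of them kept with dispersions moderated within classes. The 5 called CpGs together rose from 20.2% ± 11.8 (SD, n = 9, range 9.50% to 46.6%) to 47.1% ± 9.75 (SD, n = 8, range 35.0% to 60.4%). The highest sucrose head there was harvested at 48 h and lay inside the range of the 5-aza-dC heads. On chromosome 2, positions 28074284 to 28074303 held 3 higher calls, which together rose from 39.1% ± 22.0 (SD, n = 9) to 75.7% ± 10.6 (SD, n = 8). Sucrose heads there held 4.17%, 28.1% and 22.2% at 0 h against 91.7% and 72.5% after 48 h of 5-aza-dC, while at 48 h the values were 33.0%, 66.2% and 75.5% against 79.0%, 83.2% and 84.0%.

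Of the stretches with lower methylation, positions 577423 and 577426 of GL341018 together fell from 62.8% ± 20.5 (SD, n = 9) to 12.9% ± 9.07 (SD, n = 8). Coverage there was low, with as few as 9 reads over both CpGs in a sample. The 4 calls at positions 9947169 to 9947331 of chromosome 5 together fell from 47.5% ± 20.3 (SD, n = 9) to 18.1% ± 7.61 (SD, n = 8). The difference there was -35.9 points at 0 h, -46.2 at 24 h and -7.12 at 48 h. In both stretches 2 of the calls were kept with dispersions moderated within classes.

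Clusters of well methylated CpGs gave 4 calls, all higher. A cluster was 3 or more CpGs with a mean of at least 0.5 and at most 200 bases between neighbours, which gave 616 clusters with 2971 CpGs, a median of 4 CpGs and 81 bases each. The quasi-binomial test on reads summed over the cluster called 4 of the 616 (0.649%). Before adjustment 64 had a p under 0.05, of which 53 were higher. Over all clusters 63.3% were higher, with a median difference of 0.789 points. The clearest was positions 14817753 to 14817765 of chromosome 1, with 3 CpGs, which rose from 73.1% ± 10.5 (SD, n = 9) to 89.1% ± 3.62 (SD, n = 8, adjusted p = 0.0087 in the quasi-binomial test, no permutation). Sucrose heads there ranged from 56.9% to 91.1% and 5-aza-dC heads from 83.3% to 94.6%.

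The other 3 called clusters shared an adjusted p of 0.0466 and failed to pass in 11 to 13 of the 17 fits that left out a sample, while the first passed in all 17. Positions 28074284 to 28074516 of chromosome 2, which contain the stretch of 3 higher calls, rose from 46.0% to 73.5% over 6 CpGs. The cluster of 14 CpGs at positions 12602472 to 12602739 of chromosome 1 rose from 65.5% to 78.9%. The cluster of 9 CpGs at positions 232188 to 232282 of GL340839 rose from 89.1% ± 2.45 (SD, n = 9) to 93.5% ± 1.96 (SD, n = 8) and was higher by 2.43, 4.57 and 5.73 points at 0, 24 and 48 h. Without the 0 h harvest no cluster passed the test. A single cluster passed without sucrose replicate 2 of 24 h or replicate 1 of 48 h, and without 48 h 5-aza-dC replicate 1 of 0 h, replicate 3 of 24 h, or replicate 1 or 3 of 48 h. The count was 2 without sucrose replicate 2 or 3 of 0 h or replicate 2 of 48 h, and without 48 h 5-aza-dC replicate 2 of 24 h or of 48 h.

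The difference at called CpGs was smallest at the latest harvest. Its median in the direction of the call was 29.1 points at 0 h, 26.4 at 24 h and 14.0 at 48 h, values that describe CpGs chosen on the mean of these times. Tested within harvest times by the same quasi-binomial test, 44 CpGs (0.169%) were called at 0 h, 34 higher and 10 lower. At 24 h there were 94 calls (0.361%), 50 higher and 44 lower, and at 48 h there were 0 with 1594 CpGs at an unadjusted p under 0.05. With dispersions moderated within classes the calls were 10, 55 and 0, and with limma 6, 0 and 0. Calls at 2 harvest times were made at 4 CpGs, each higher at 0 and 24 h. These were positions 2192451 and 9397768 of chromosome 1, position 25831311 of chromosome 3 and position 41963 of ChrUn_0265. At the first of them, sucrose heads had means of 1.52%, 1.85% and 17.3% at 0, 24 and 48 h, and 48 h 5-aza-dC heads 41.8%, 44.2% and 23.7%. These counts do not show that the effect differed between times. The test of that difference, the interaction of regime and harvest time, was called at 9 CpGs (0.0345%), and 1694 had an unadjusted p under 0.05. It was called at 0 CpGs with limma or with dispersions moderated within classes. This count also turned on single heads of the 48 h harvest: without sucrose replicate 1, 2 or 3 it was 27, 3 or 15, and without 48 h 5-aza-dC replicate 1, 2 or 3 it was 26, 36 or 22. It was 15 without sucrose replicate 1 of 0 h and 16 without sucrose replicate 2 of 24 h.

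Harvest time also separated heads within a regime. Among sucrose heads 43 of the tested CpGs differed between harvest times, and among 48 h 5-aza-dC heads 21 did. With dispersions moderated within classes these counts were 13 and 2. The 43 are 0.165% of all tested CpGs. Of the 128 CpGs called between regimes, 13 (10.2%) also differed among sucrose harvest times, in a test that uses the same sucrose heads. At 15 of the 16 CpGs with the largest differences, the mean of sucrose heads harvested at 48 h lay nearer to the mean of 48 h 5-aza-dC heads than did the mean of the earlier sucrose heads. These 16 were chosen on the same heads, and several share a stretch, so they are not separate places. The share over all called or all tested CpGs was not counted, so this count alone shows no general effect of harvest time. At position 12602689 of chromosome 1, the only CpG called both for the regime and for its interaction with harvest time, sucrose heads had means of 47.9%, 35.8% and 71.4% at 0, 24 and 48 h, and 48 h 5-aza-dC heads 76.8%, 81.1% and 75.6%.

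Bodies, the thorax and abdomen, were sampled under the same 2 regimes in 18 samples, and their differences ran the same way as in heads. For CpGs at 0.8 or above in heads, the difference in bodies was 0.768 points, close to the 0.778 in heads. For CpGs under 0.02 it was 2.20 points (exact permutation p = 0.0165), with an SD of 2.88 among bodies fed the drug. In the classes between them the differences were larger in bodies than in heads. At 0.5 to 0.8 the difference was 1.41 points in bodies and 0.673 in heads. At 0.2 to 0.5 it was 1.70 and 0.996, and at 0.1 to 0.2 it was 2.61 and 1.80. The exact permutation p in bodies was 0.0015, 0.0045 and 0.001, without adjustment. Class differences were not tested between tissues. In bodies 123 of the same 26063 CpGs were called (0.472%), 96 of them higher. Both tissues called 49 CpGs, all in the same direction, which is 38.3% of the calls in heads and 39.8% of those in bodies. Of the 82 CpGs called higher in heads, 79 (96.3%) were higher in bodies, against 66.15% of all tested. Of the 46 called lower in heads, 43 (93.5%) were lower in bodies, against 33.85% of all tested. The median difference in bodies was 16.8 points for the higher calls and -13.7 points for the lower ones, values that describe CpGs chosen on heads. Whether heads and bodies came from the same females is not stated in the labels, so the tissues may not be independent samples.

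No difference between the tissues was detected at single CpGs. The regime by tissue term called 0 of 26063 CpGs in the quasi-binomial test, with 1149 at an unadjusted p under 0.05, and 0 with limma, with 1195. At some positions the means of the tissues lay far apart all the same, but these positions were chosen for large differences in heads. Such a choice by itself tends to leave smaller differences in bodies. Position 8413807 of chromosome 5 had 36.1% ± 22.8 (SD, n = 9) in sucrose bodies and 38.5% ± 16.1 (SD, n = 9) in 48 h 5-aza-dC bodies, a difference of 2.44 points against 36.6 in heads. Position 211617 of GL341044 had a difference of -6.08 points in bodies against -38.2 in heads. At position 41990 of ChrUn_0265, bodies had 10.5% ± 12.1 (SD, n = 9) and 44.9% ± 9.66 (SD, n = 9), nearly the levels of heads. The called CpGs of the stretch on ChrUn_0265 together went from 14.6% to 37.0% in bodies.

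**Figure D5:**
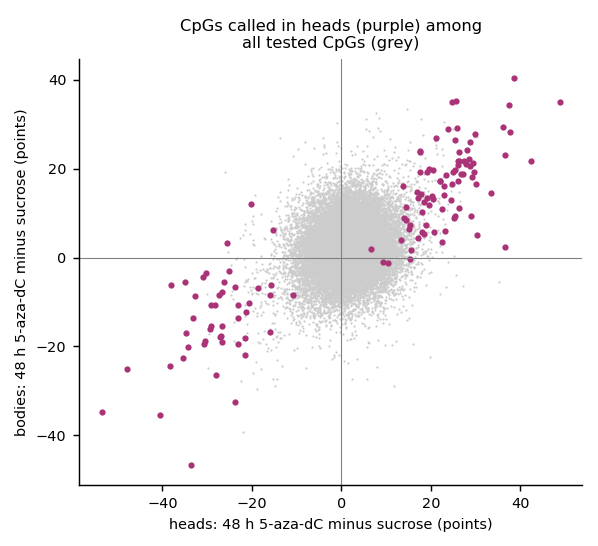
Difference between 48 h 5-aza-dC and sucrose in percentage points in bodies against that in heads, for the tested CpGs (grey) and the 128 called in heads (purple). Of the called CpGs, 79 of 82 higher and 43 of 46 lower ones have the same sign in bodies, with smaller median differences there. The CpGs were chosen on heads, which by itself tends to make body differences smaller.

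Heads fed 5-aza-dC for 24 h were compared with none of these values by a test, as a comparison with sucrose would share the control heads. At position 41963 of ChrUn_0265 the 7 heads of that regime had a mean of 32.0% ± 22.8 (SD, n = 7), beside 22.0% ± 14.6 (SD, n = 9) in sucrose heads and 62.9% ± 12.7 (SD, n = 8) after 48 h. At position 28060267 of chromosome 2 they had 36.0% ± 25.6 (SD, n = 7), beside 33.2% and 82.1%. At position 211617 of GL341044 they had 24.2% ± 12.0 (SD, n = 7), beside a range of 40.0% to 76.2% in sucrose heads and a mean of 21.1% after 48 h. Of the 16 CpGs with the largest differences, 9 had reads in 24 h heads. At 6 of these the mean of 24 h heads lay nearer to that of sucrose heads, and at 3 nearer to that of 48 h heads. They were chosen because the sucrose and 48 h means lay far apart, which by itself tends to place another group between them. Other CpGs were not counted, so an order by length of feeding was not tested.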

How the data were processed

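Per the labels' protocols, bisulphite conversion used the EZ DNA Methylation kit, and libraries were made with the TruSeq DNA methylation kit for paired-end sequencing. The submitters' processing notes name cutadapt 1.12, Bismark 0.16, Bowtie2, SAMtools, methylKit 0.99.3 and R 3.3.1. The genome build, the read filters and any removal of duplicates are not given in the sources used here. Each value the authors deposited pairs a count of methylated reads with a count of total reads at a CpG, with no normalization. Samples were grouped by labelled regime, harvest time and tissue. Replicate numbers follow accession order and pair nothing. The labels do not say whether pools were separate cultures, so p-values measure at most the spread between these samples. In the main quasi-binomial test most of the weight lies on a dispersion common to all tested CpGs (70.79 prior degrees of freedom). Its p-values therefore rest less on the spread at the CpG itself. Within a regime and harvest time, at most 1.282% of tested CpGs had identical counts in a pair of samples.

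Tested CpGs had at least 3 reads in each of the 17 heads and a mean level, over the 2 regime means, of at least 0.1 (median 21 reads per value, so a read moves most values by several points). The quasi-binomial logistic model (Python 3.11.15, numpy 2.4.6, scipy 1.17.1) used Pearson dispersions moderated by limma's squeezeVar method with a floor of 1, F tests, and the Benjamini-Hochberg adjustment over all tested CpGs at 0.05. It was tested on simulated counts in which all CpGs shared a common correlation of reads. That setting cannot show how the test behaves where dispersions differ between CpGs, so it lends no support to the calls. Proportions were also fitted with limma 3.58.1 in R 4.3.3 as an alternative. Class means were compared by two-sided exact permutation within harvest times (4000 arrangements). Differences between regimes are means over the 3 harvest times. Differences in bodies use the harvest time in the characteristics, which for 6 of the 18 body samples is not the one in the title. The CpGs and clusters named are the 8 higher and 8 lower CpGs, and up to 6 clusters in each direction, with the largest differences among calls of the same sign at the 3 harvest times, CpGs having at least 10 reads on average. CpGs whose groups did not overlap, the stretches, the threshold positions, and the CpGs called by the interaction or at 2 harvest times are named besides, after their values were seen. The comparison, its lists and its tests were chosen with earlier results of these data known.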

Additional observations from a re-analysis of the deposited data

Results flagged for a closer look

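Among 44 groups of samples examined, 2 held a sample that stood apart from its group by Dixon's criterion, about as many as chance gives at 1 in 20. Replicate 3 of sucrose heads harvested at 48 h had the lowest mean at CpGs of 0.8 or above, 91.2%. Replicate 2 of 48 h 5-aza-dC heads harvested at 0 h had the highest mean at CpGs under 0.02, 2.94%. Leaving out any single sample kept both class differences at an exact permutation p of 0.0025 or less.

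The regime difference changed with harvest time at 9 CpGs by the quasi-binomial interaction term, and at 0 of them with limma or with dispersions moderated within level classes. An adjusted p of 0.0155 was shared by 7 of the 9. Position 12602546 of chromosome 1 went from 40.3% in sucrose heads to 87.6% in 48 h 5-aza-dC heads at 0 h, from 52.9% to 70.2% at 24 h and from 81.3% to 62.2% at 48 h. Position 15031276 of chromosome 1 went from 23.6% to 61.1%, from 43.7% to 15.9% and from 45.9% to 42.0% at the same times. Position 26652381 of chromosome 1 went from 49.0% to 93.5%, from 72.1% to 48.3% and from 62.5% to 67.2%. Position 5388573 of chromosome 2 went from 86.0% to 63.0%, from 88.8% to 47.1% and from 55.0% to 79.1%. Position 10271575 of chromosome 2 went from 3.12% to 54.3%, from 12.5% to 40.7% and from 48.2% to 43.9%. Position 106588 of chromosome 4 went from 26.9% to 10.8%, from 48.4% to 9.47% and from 14.4% to 38.7%. Position 8120331 of chromosome 5 went from 34.9% to 65.9%, from 49.6% to 26.8% and from 65.3% to 30.01%. Position 12602689 of chromosome 1, described above, had an adjusted p of 0.0306. Position 7895793 of chromosome 4 (adjusted p = 0.0373) went from 94.2% to 50.6%, from 95.1% to 84.1% and from 39.3% to 55.8%.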

How the results depend on the processing

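The number of called CpGs depended on the processing. Against 128 it was 78 with at least 10 reads in every sample, 223 from a mean level of 0.05, 6 with limma, 4 (1 higher, 3 lower) with limma on samples centred on their median, 0 without moderation, 63 with dispersions moderated within level classes, 60 without the 0 h harvest and 197 without the 48 h harvest, and 94 to 166 when single samples were left out. At 10 reads, calls within harvest times were 29 at 0 h and 46 at 24 h, with limma 6 and 0, and with dispersions moderated within classes 10 and 55. The regime by harvest time term gave 0 calls with limma or moderation within classes, and 3 to 36 without single samples. Called clusters numbered 1 after correction for the level at CpGs under 0.02 and 1 with limma, 0 without the 0 h harvest, and 1 to 5 without single samples. The class at 0.8 or above kept its direction and an exact permutation p under 0.05 in every alternative run (0.680 to 0.869 points without single samples), and so did the class under 0.02 (0.846 to 1.23). At 0.5 to 0.8 the difference was 0.997 points (exact permutation p = 0.0045) with classes taken from bodies and reversed to -0.0090 (p = 0.975) without the 48 h harvest, with 0.174 to 0.942 without single samples. At 0.2 to 0.5 it was 1.69 points (exact permutation p = 0.026) at 10 reads, and 0.345 to 1.93 without single samples. At 0.1 to 0.2 it was 1.81 points at 10 reads (exact permutation p = 0.051), 0.867 after the correction (p = 0.381), 1.73 without the 0 h harvest (p = 0.180), and 1.14 to 2.45 without single samples (p from 0.010 to 0.175). The cause of these changes was not tested. None of the 16 CpGs with the largest differences and the 4 called clusters changed sign in any alternative run. They were chosen for large differences of the same sign at every harvest time, so such a change was unlikely from the start. With single samples left out, 304 of their fits kept an adjusted p under 0.05 and 36 did not. In the other alternative runs 164 kept it and 62 did not. Other named CpGs were not refitted. Leaving out a harvest time and moderation within classes were added after seeing the data. No paired analysis was possible because replicate numbers follow only accession order. The planned edgeR alternative was not run. Coverage of a median of 21 reads per value limits single CpGs.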
